A study of Mus musculus with 6 samples.

Results

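The genes described are those of adult and embryonic haemoglobin in mouse spleen, together with Bcl11a, a repressor of embryonic globin genes. They were chosen by symbol: the adult alpha genes Hba-a1 and Hba-a2, the adult beta genes Hbb-bs and Hbb-bt, the embryonic genes Hba-x, Hbb-y and Hbb-bh1, the alpha-chain chaperone gene Ahsp, and Bcl11a. Of these 9 symbols, 8 matched a row among the 31771 Ensembl identifiers of the deposited table, and Ahsp was not analysed here. RNA came from frozen pieces of spleen of 3 mutant animals and 3 wild-type (WT) animals, each a library of its own, all labelled strain C57BL/6. The mutants carried VEC-Cre (Cre recombinase under the promoter of VE-cadherin, a junction protein of endothelium), an SB (Sleeping Beauty) transposase and the onc2 transposon, and the controls are labelled WT with no allele or agent named. The stated aim was to assess which cells the spleens held, in a genetic screen aimed at endothelium. The labels give no age, litter or batch, and such a Cre can also mark blood cells, which descend in part from embryonic endothelium.

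Haemoglobin joins alpha-type and beta-type chains, which are encoded by gene clusters on different chromosomes. In mice, Hba-x, Hbb-y and Hbb-bh1 serve the primitive red cells of the early embryo, and the adult genes take over in definitive red cells of fetal liver, marrow and spleen. Mouse spleen keeps red cell production after birth and expands it under stress. Globin messages accumulate late in red cell maturation and persist in reticulocytes, so a spleen library also holds globin RNA from circulating young red cells. Bcl11a silences embryonic beta-type genes in definitive erythroid cells and is also abundant in B cells and plasmacytoid dendritic cells.

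Each library held between 72902118 and 79258116 counts, and 1 count was worth between 0.0126 and 0.0137 CPM (a gene's counts divided by the library's total, scaled alike in all libraries). Levels below are CPM, and fold changes are log2 of mutant over WT from edgeR's quasi-likelihood test over 19573 genes. The summed CPM of 6 B cell markers was between 36.0 and 90.2 in mutants and between 4573 and 5202 in WT, and that of 3 endothelial markers was between 187 and 393 in mutants and between 371 and 407 in WT. Xist, the RNA of the inactive X chromosome, was at 1513 and 580 CPM in mutants 1 and 2, at 0.586 CPM in mutant 3 and between 0.423 and 0.663 CPM in WT. For mutants 1 and 2, genotype and sex cannot be told apart, and mutant 3 alone had the Xist level of WT. In whole tissue, fewer cells of a type and less RNA per cell cannot be told apart.

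The 250 bases before the start of 5 globin genes are shown because they let the adult pair of beta genes, the embryonic beta gene and the alpha genes be compared letter by letter. They come from RefSeq on GRCm38.p6, 6 of the 7 globin genes and Bcl11a having an entry, and run 5′ to 3′ on the gene's strand. Capitals mark matches to 5 kinds of words. These are the CACCC-type word CCNCNCCC, bound by the erythroid factor Klf1, the word CCAAT, the GATA words AGATAA or else AGATAG or else TGATAA or else TGATAG, the word TGACCA, which human BCL11A recognises, and, on the gene's strand only, the TATA-type words TATAAA or else TATAAG or else CATAAA.
Hba-a1 (chr11:32283422-32283671, plus strand): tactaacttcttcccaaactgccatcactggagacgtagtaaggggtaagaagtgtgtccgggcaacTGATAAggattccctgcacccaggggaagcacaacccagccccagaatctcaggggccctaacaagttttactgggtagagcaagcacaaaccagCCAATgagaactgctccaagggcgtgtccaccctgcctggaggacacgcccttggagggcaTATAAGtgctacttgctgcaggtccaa
Hba-x (chr11:32276350-32276599, plus strand): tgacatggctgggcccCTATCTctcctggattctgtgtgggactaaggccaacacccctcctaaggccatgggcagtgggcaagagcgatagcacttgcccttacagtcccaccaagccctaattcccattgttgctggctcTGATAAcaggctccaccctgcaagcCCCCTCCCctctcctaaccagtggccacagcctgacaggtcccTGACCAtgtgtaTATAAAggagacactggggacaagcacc
Hbb-bs (chr7:103827929-103828178, minus strand): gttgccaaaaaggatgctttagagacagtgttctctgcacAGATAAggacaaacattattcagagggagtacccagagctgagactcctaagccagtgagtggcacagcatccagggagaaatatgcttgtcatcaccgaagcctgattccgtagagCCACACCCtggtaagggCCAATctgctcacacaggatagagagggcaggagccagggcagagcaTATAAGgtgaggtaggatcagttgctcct
Hbb-bt (chr7:103813924-103814173, minus strand): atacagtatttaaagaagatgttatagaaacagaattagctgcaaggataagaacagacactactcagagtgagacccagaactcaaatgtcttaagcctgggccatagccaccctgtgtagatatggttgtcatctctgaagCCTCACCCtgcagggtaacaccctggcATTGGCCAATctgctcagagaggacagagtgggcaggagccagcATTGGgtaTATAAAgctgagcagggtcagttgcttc
Hbb-y (chr7:103853208-103853457, minus strand): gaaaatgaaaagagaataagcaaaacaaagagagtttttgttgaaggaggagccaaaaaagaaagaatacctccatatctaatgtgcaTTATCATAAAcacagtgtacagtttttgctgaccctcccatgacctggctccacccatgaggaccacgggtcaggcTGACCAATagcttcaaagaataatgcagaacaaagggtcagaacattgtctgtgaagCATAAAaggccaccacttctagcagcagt

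Among the 5 windows, TGACCA stood only in those of the embryonic genes Hba-x and Hbb-y. In Hbb-y that match overlapped the CCAAT match, and its GATA match overlapped the distal TATA-type match. The CACCC-type word began at position -93 in Hbb-bs, -107 in Hbb-bt and -83 in Hba-x, counting the last base before the start as -1. Of 32851 RefSeq windows of this length, 11.4% held TGACCA, 45.9% the CACCC-type word, 33.8% CCAAT, 26.5% a GATA word and 16.2% a TATA-type word, so none of these is rare. The window of Hba-a2 shared a run of 247 identical bases with that of Hba-a1 and is not printed, whereas Hbb-bs and Hbb-bt shared at most 14 bases in a row and were 70.9% identical after alignment.

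Adult globin transcripts stood below WT in all 3 mutant spleens for 3 of the 4 genes, by very different amounts from animal to animal. Hbb-bs, the major adult beta gene of this strain's haplotype (ENSMUSG00000052305, chromosome 7, 103826534 to 103828096), was at 2443, 29734 and 844 CPM in mutants 1, 2 and 3, against 61514, 59136 and 38782 CPM in WT. All 3 mutants were lower than every WT library, mutant 3 by far the most and mutant 2 the least. Hba-a1 (ENSMUSG00000069919, chromosome 11, 32283511 to 32284465) was at 1698, 11691 and 413 CPM in the mutants, against 18384, 18418 and 12329 CPM in WT. Hba-a2 (ENSMUSG00000069917, chromosome 11, 32296489 to 32297298), its near-copy, was at 638, 7158 and 166 CPM in the mutants, against 21156, 18360 and 13699 CPM in WT. Both alpha genes repeated the order of Hbb-bs, with mutant 2 close to the lowest WT library for Hba-a1. Hbb-bt, the minor adult beta gene (ENSMUSG00000073940, chromosome 7, 103812524 to 103813996), was at 1092, 5299 and 183 CPM in the mutants, against 8599, 7923 and 5013 CPM in WT. Here the groups overlapped, since mutant 2 lay above WT 3.

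**Figure D1:**
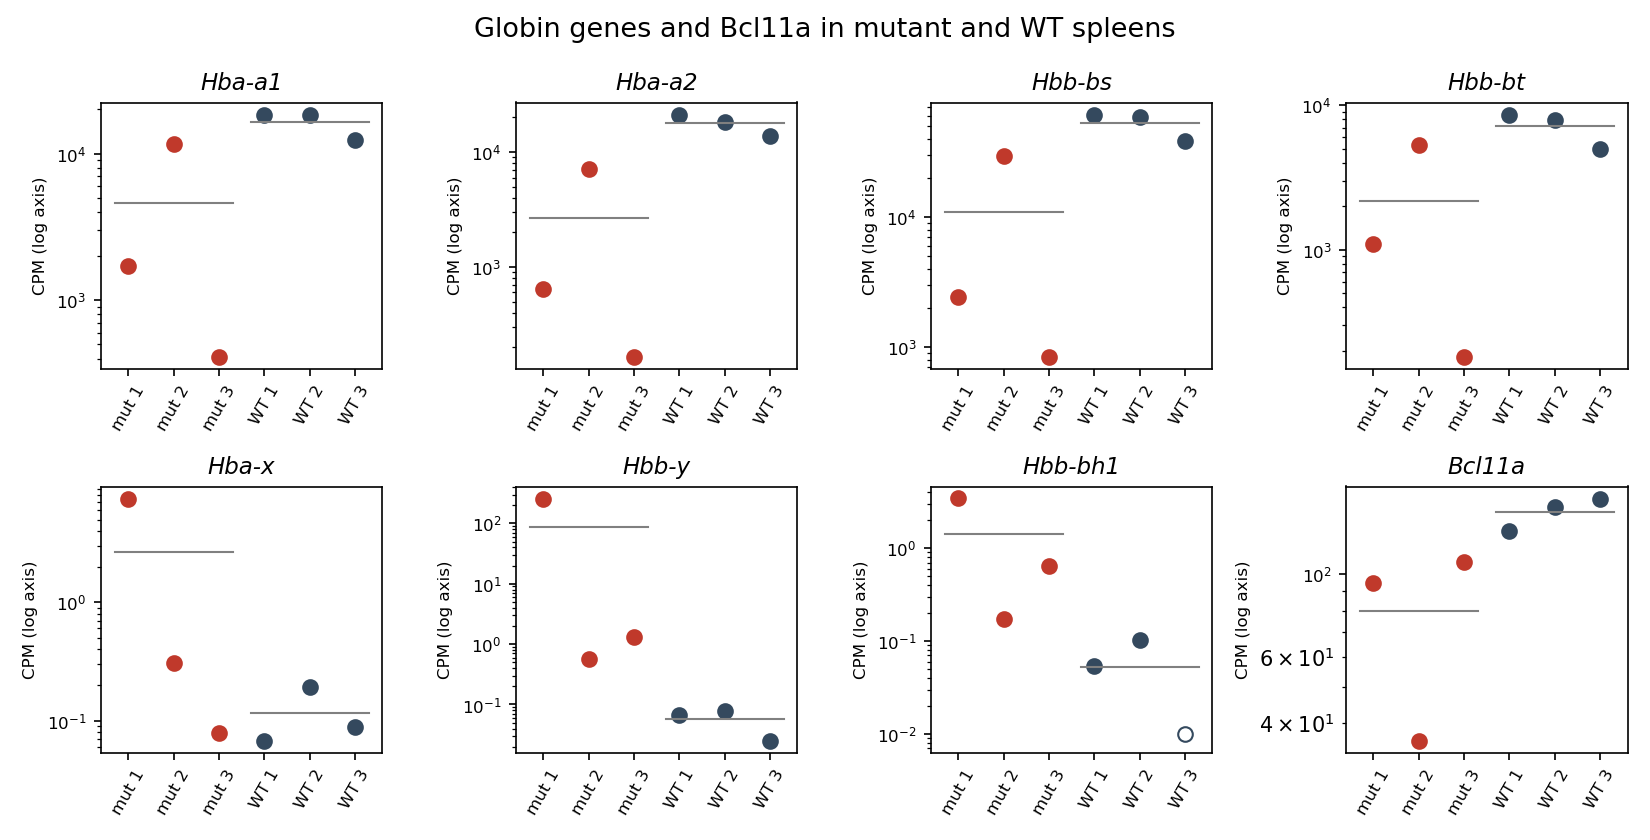
CPM of the 8 genes in each library on log axes, with red points for the 3 mutants, dark points for the 3 WT libraries, grey lines for group means and an open point, set at 0.01, for a count of 0. Adult globins lie lowest in mutant 3, embryonic Hbb-y stands at 257 CPM in mutant 1, and Bcl11a lies between 35.9 and 108 CPM in mutants and between 130 and 160 CPM in WT.

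None of the 8 genes passed edgeR's quasi-likelihood test with Benjamini-Hochberg adjustment at 0.05, a test that 12.0% of all tested genes passed. Before adjustment, 3 of the 8 (Hba-x, Hbb-y and Hbb-bh1, all higher) had a p under 0.05. Among all 19573 tested genes, 3169 were higher with such a p and 2945 were lower. These 3 embryonic genes entered the test through mutant libraries where they were high, Hba-x also through WT 2, so their count supports nothing. The log2 fold change was -1.76 ± 1.16 for Hba-a1, -2.66 ± 1.35 for Hba-a2, -2.19 ± 1.32 for Hbb-bs and -1.64 ± 1.12 for Hbb-bt (SE, edgeR adjusted p = 0.347, 0.234, 0.306 and 0.360). Summing each pair of near-copies before the fit gave -2.16 ± 1.23 for the alpha genes and -2.12 ± 1.28 for the beta genes. These results changed with the libraries used. When mutant 2 was left out, 7 of the 8 passed by edgeR, against 29.0% of all tested genes. The adult genes then lay at -3.99 (Hba-a1), -5.49 (Hba-a2), -5.05 (Hbb-bs) and -3.52 (Hbb-bt), with edgeR adjusted p of 0.0194, 0.0101, 0.00803 and 0.0412. With mutant 3 alone against WT, 7 passed as well, but 52.6% of all tested genes did so, and the lone library was assumed to vary like WT. None of the 8 passed without mutant 3, where 10.4% of all tested genes did, or without WT 1, 2 or 3, where 0.665%, 0.601% and 0.667% did. In CPM, 4 of the 8 genes (Hba-a1, Hba-a2, Hbb-bs and Bcl11a) had all mutants below all WT libraries, as did 22.6% of tested genes, and 2 (Hbb-y and Hbb-bh1) had all mutants above, as did 18.0%.

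**Figure D2:**
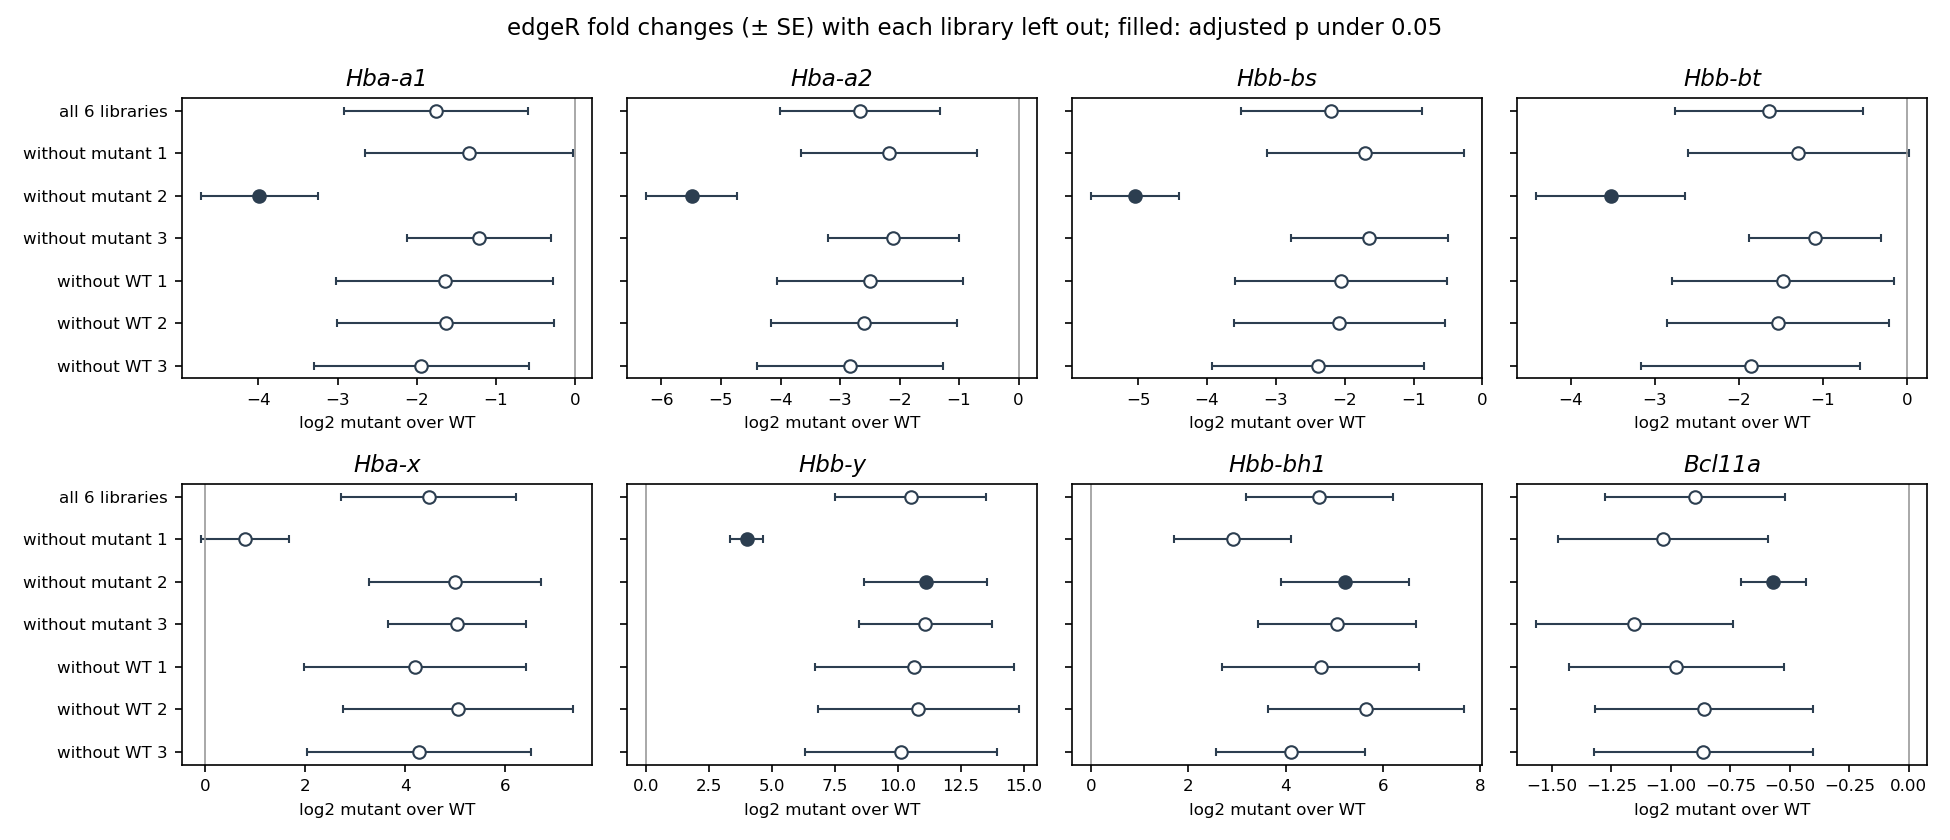
Log2 fold change of mutant over WT ± SE by edgeR for each gene, with all 6 libraries and with each library left out. Filled points have an adjusted p under 0.05, which holds for 7 of the 8 genes without mutant 2 and for Hbb-y without mutant 1.

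The 4 adult genes together took 0.587%, 5.39% and 0.161% of all counts in mutants 1, 2 and 3, against 10.97%, 10.4% and 6.98% in WT. The groups did not overlap, and the exact 2-sided permutation p was 0.1, the smallest that 3 against 3 allows. Counts of adult alpha over adult beta genes stood at 0.661, 0.538 and 0.563 in mutants, against 0.564, 0.548 and 0.594 in WT, a log2 difference of 0.04 with an SD of 0.16 among mutants and 0.06 among WT. This difference was within the spread between libraries, the ranges overlapped, and the exact permutation p was 0.9. Per kb of annotated exon, Hbb-bs averaged 14332 CPM in mutants and 69198 CPM in WT and was the highest globin gene in each library. In WT the order then ran Hba-a2 at 26594.5 CPM per kb, Hba-a1 at 20169 and Hbb-bt at 10211, and in each WT library the 4 kept that order. In all 3 mutants Hba-a1 stood above Hba-a2 per kb, and in mutants 1 and 3 Hbb-bt did too.

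Within each pair of adult copies, the ratio of counts was higher in all 3 mutants than in all 3 WT libraries. The counts of Hba-a1 over Hba-a2 stood at 2.66, 1.63 and 2.49 in mutants, against 0.869, 1.003 and 0.900 in WT, so that Hba-a1 took the larger part in every mutant. The counts of Hbb-bt over Hbb-bs stood at 0.447, 0.178 and 0.217 in mutants, against 0.140, 0.134 and 0.129 in WT. The log2 difference was 1.26 for the alpha pair and 0.94 for the beta pair (exact permutation p = 0.1 for each, the smallest possible, and 0.117 adjusted over 7 ratios), and that of the beta pair was 0.55 without mutant 1. The 3 WT libraries were tightly grouped (SD 0.11 and 0.06 on the log2 scale) and the mutants were not (0.38 and 0.70). The coding sequences of Hba-a1 and Hba-a2 are 99.8% identical and those of Hbb-bs and Hbb-bt also 99.8%, and their transcripts share runs of 415 and 430 identical bases, so reads can be placed on either copy only through the stretches that differ. How the submitters counted reads that match both copies is not stated, and its part in these ratios was not tested.

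The alpha cluster also holds Hbq1b and Hbq1a, theta-type globin genes, of which Hbq1b lies between Hba-a1 and Hba-a2 and Hbq1a beyond Hba-a2. Hbq1b was at 11.9, 49.9 and 8.57 CPM in mutants, against 19.0, 15.3 and 7.62 CPM in WT (log2 0.80 ± 0.78, edgeR adjusted p = 0.527). Hbq1a was at 0.562, 4.72 and 0.221 CPM in mutants, against 4.93, 4.89 and 2.22 CPM in WT (log2 -1.06 ± 1.15, edgeR adjusted p = 0.568). Their ratio, a comparison chosen after the values were seen, stood at 21.1, 10.6 and 38.7 in mutants, against 3.86, 3.13 and 3.43 in WT, with no overlap. In both alpha-type pairs the copy nearer to the start of the cluster thus had a larger share in mutants than in WT. Hbq1b had the larger part in every WT library too. The ratios of the theta pair in mutants 1, 2 and 3 rest on 41, 351 and 17 counts of Hbq1a. The theta genes are 94.1% identical in coding sequence, so the same limit on reads applies to them.

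**Figure D3:**
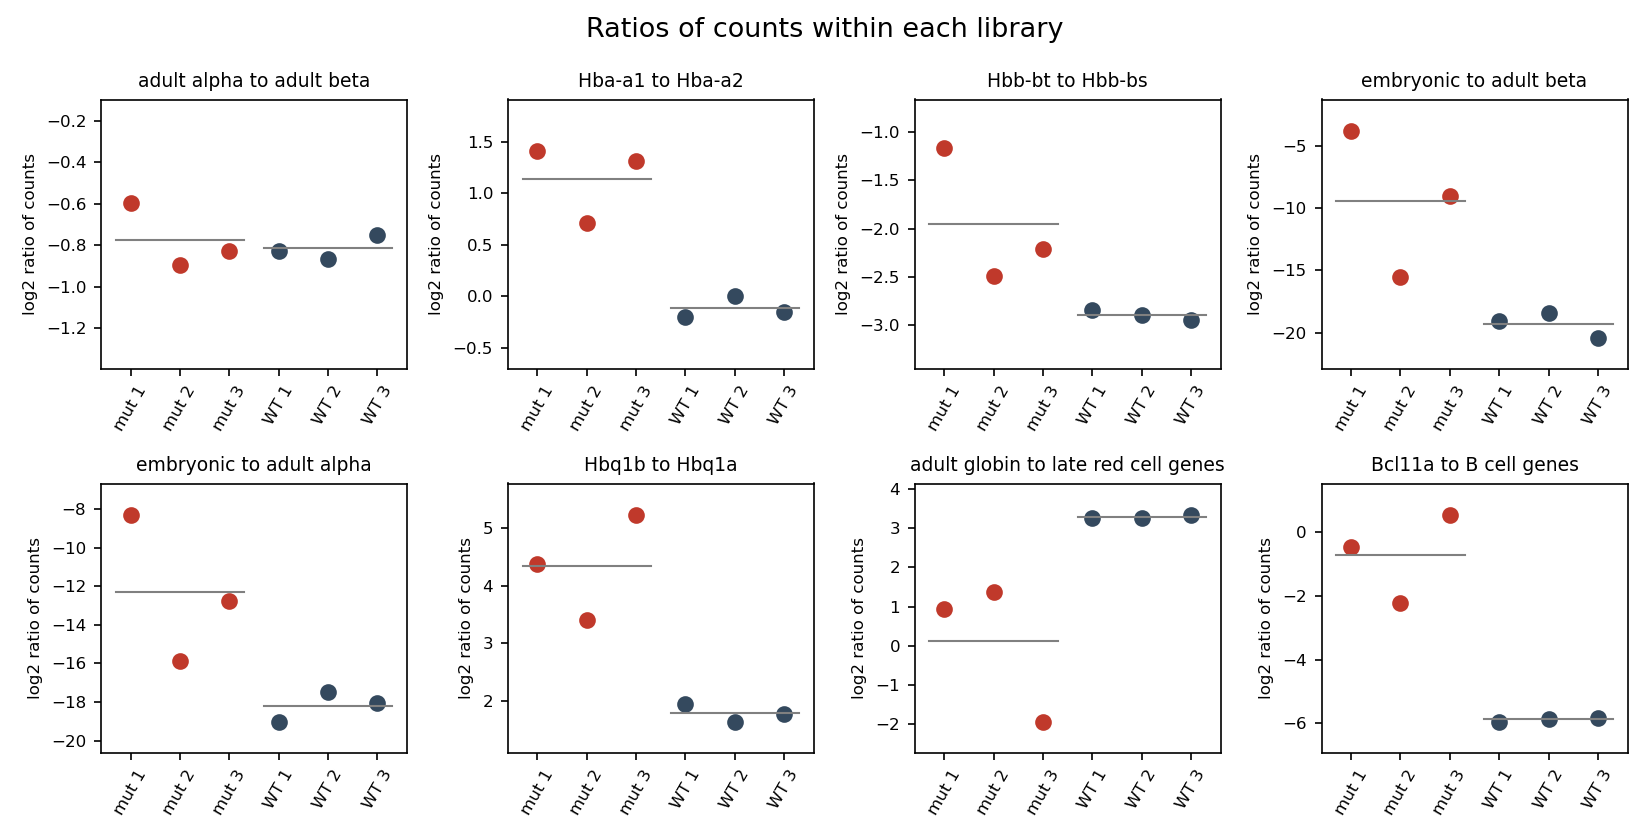
Log2 ratios of counts within each library for 8 pairs of genes or gene sums, with red points for mutants, dark points for WT and grey lines for group means. Alpha to beta overlaps between groups, and the other 7 ratios separate all mutants from all WT libraries.

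Other late red cell transcripts were neither uniformly lower nor uniformly higher in mutants. A list of 28 genes of late red cell maturation, chosen without globins, summed to 3060, 20663 and 6212 CPM in mutants, against 11356.5, 10738 and 6815 CPM in WT, and these ranges overlapped. Of the 28 tested, 1 rose (against 5.08% of all tested genes higher) and 0 fell (against 6.90% lower) by edgeR, with a median log2 fold change of 0.68, against 0.10 over all tested genes, and by limma-voom that median was -0.26. The gene that rose was Rhag, part of the Rh ammonium channel complex, at 152, 408 and 417 CPM in mutants, against 57.6, 54.3 and 22.3 CPM in WT (log2 2.87 ± 0.57, edgeR adjusted p = 0.0298). Ermap, an erythroid membrane protein gene, was at 63.5, 557 and 855 CPM in mutants, against 135, 122 and 63.0 CPM in WT (edgeR adjusted p = 0.153). Alas2, the erythroid enzyme that starts haem synthesis, was at 72.9, 1365 and 458 CPM in mutants, against 1249, 1416 and 831 CPM in WT (edgeR adjusted p = 0.590). Slc25a37, the mitochondrial iron importer, was at 227, 2085 and 185 CPM in mutants, against 1157, 1071 and 728 CPM in WT (edgeR adjusted p = 0.920). Without mutant 2 the list had 1 member higher and 10 lower (29.0% of all tested genes passed in that fit), without mutant 1 it had 6 higher and 0 lower (18.2% passed), and Rhag no longer passed when mutant 3 or any one WT library was left out.

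Counts of adult globin per count of these 28 genes were 1.92, 2.61 and 0.258 in mutants, against 9.66, 9.67 and 10.2 in WT. The 3 WT libraries were nearly equal in this ratio, with an SD of 0.05 on the log2 scale, and every mutant lay far below them, mutant 2 included, although its late red cell sum exceeded that of each WT library. The log2 difference was -3.18 (exact permutation p = 0.1, the smallest possible, and 0.117 adjusted over 7 ratios). It lay between -3.81 and -2.14 with any single library left out.

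**Figure D4:**
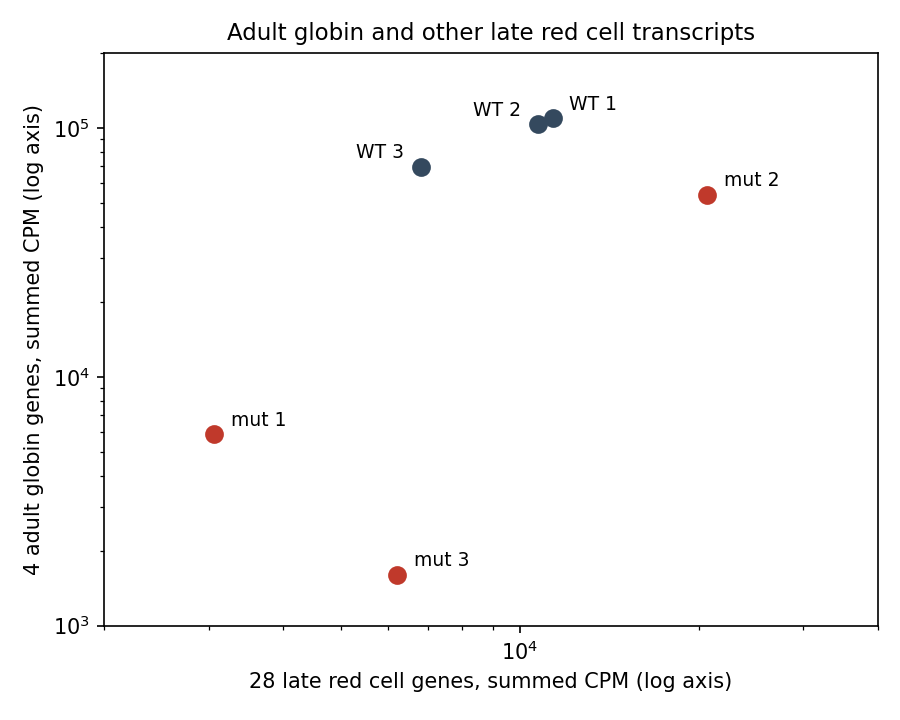
Summed CPM of the 4 adult globin genes against summed CPM of 28 late red cell genes, 1 point per library, red for mutants and dark for WT, on log axes. WT libraries lie between 69823 and 109653 CPM of globin, and mutant 2 has the highest late red cell sum (20663 CPM) at 53881 CPM of globin.

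Embryonic globin counts were far higher in mutant 1 than in any other library. In mutants 2 and 3 Hbb-y and Hbb-bh1 were low but above all WT libraries. Hbb-y, the embryonic epsilon-type beta gene (ENSMUSG00000052187, chromosome 7, 103851749 to 103853216), had 18721, 42 and 99 counts in mutants 1, 2 and 3, against 5, 6 and 2 counts in WT. That is 257, 0.565 and 1.29 CPM in mutants, against 0.0677, 0.0770 and 0.0252 CPM in WT. All mutants were above all WT libraries, and mutant 1 stood far above the other 2 mutants. Against the 13 counts of the pooled WT libraries the CPM of mutants 1, 2 and 3 were 4565, 10.0 and 22.9 times as high, with exact 95% counting intervals of 2669 to 8575, 5.29 to 20.4 and 12.8 to 44.6, which cover counting error only. Hbb-bh1, the other embryonic beta-type gene (ENSMUSG00000052217, chromosome 7, 103841637 to 103843164), had 252, 13 and 49 counts in mutants, against 4, 8 and 0 counts in WT. Against the 12 pooled WT counts, mutants 1, 2 and 3 were 66.6, 3.37 and 12.3 times as high in CPM. The exact 95% counting intervals were 37.4 to 131, 1.42 to 8.07 and 6.44 to 25.4, so mutant 2 was the least apart from WT. The count of 0 in WT 3 allows a level of up to 0.0379 CPM, which is 3 counts. Hba-x, the zeta-type embryonic alpha gene (ENSMUSG00000055609, chromosome 11, 32276400 to 32278116), had 548, 23 and 6 counts in mutants, against 5, 15 and 7 counts in WT. For Hba-x the groups overlapped, with mutant 3 at the level of WT.

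The fitted log2 fold change was 10.51 ± 2.99 for Hbb-y, 4.70 ± 1.51 for Hbb-bh1 and 4.46 ± 1.75 for Hba-x (SE, edgeR adjusted p = 0.0724, 0.0946 and 0.145). All 3 passed the filter on low counts, Hbb-y and Hbb-bh1 through the mutant libraries where they were high. Hba-x passed it through mutants 1 and 2 (7.52 and 0.309 CPM) with WT 2 (0.192 CPM). Calls, unadjusted p-values and lack of overlap of these 3 genes, wherever given, are therefore values only and support nothing. With no filter they did not pass either (edgeR adjusted p = 0.0981 for Hbb-y and 0.116 for Hbb-bh1). Without mutant 1, Hbb-y was the 1 member of the 8 that passed by edgeR (log2 4.003, adjusted p = 0.0206), where 18.2% of all tested genes did, while Hbb-bh1 was at 2.91 and Hba-x at 0.79 on the log2 scale. By DESeq2 1 of the 8 passed, Hbb-bh1 (adjusted p = 0.00353), against 28.9% of all tested genes, and Hbb-y and Hba-x were given no adjusted p. By limma-voom with sample weights 5 passed, the 4 adult genes and Hbb-y, against 18.7% of all tested genes.

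Set against the adult genes of the same cluster, the embryonic beta counts (Hbb-y with Hbb-bh1) were 7.36%, 0.00211% and 0.188% of the adult beta counts in mutants 1, 2 and 3, and at most 0.000268% in WT. Hba-x counts were 0.322%, 0.00164% and 0.0135% of the adult alpha counts in mutants, and at most 0.000523% in WT. Neither ratio overlapped between groups (exact permutation p = 0.1 for each, the smallest possible, and 0.117 adjusted over 7 ratios), and without mutant 1 the log2 differences were 7.02 and 3.89, against 9.86 and 5.90 with it. The adult counts below these ratios were themselves lower in mutants, which enters these shares, and the 6 Hba-x counts of mutant 3 were within the range of WT. In coding sequence Hbb-y was 75.6% identical to Hbb-bs, with at most 22 shared bases in a row, and Hba-x 66.3% identical to Hba-a1. Hbb-bh0, a pseudogene next to Hbb-y, had 55, 1 and 0 counts in mutants and 0 in each WT library, and Hbb-bh2 had 0, 4 and 1 counts in mutants, against 8, 0 and 0 in WT. The 8 olfactory receptor genes with a row within 100 kb of the beta cluster had at most 26 counts in any library, while Hbb-y alone had 18721 in mutant 1. Each of the 8 was highest in mutant 1 or 2. Olfr68 had 15, 26 and 1 counts in mutants, against 2, 0 and 0 in WT, and Olfr633 had 20, 2 and 0, against 0 in each WT library.

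Bcl11a (ENSMUSG00000000861, chromosome 11, 24078056 to 24174123) was at 95.1, 35.9 and 108 CPM in mutants 1, 2 and 3, against 130, 152 and 160 CPM in WT. All mutants were below all WT libraries, but the gene did not pass (log2 -0.90 ± 0.38, edgeR adjusted p = 0.166), and its lowest value was in mutant 2. In whole spleen these values do not tell which cells the Bcl11a RNA came from, and its relation to the globin genes was not tested. Without mutant 2, Bcl11a passed as lower (log2 -0.57, edgeR adjusted p = 0.0346).

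Genes of B cells, 14 in all, fell without exception (14 of 14, median log2 fold change -6.86, against 6.90% of all tested genes lower). Fcmr, the Fc receptor for immunoglobulin M, fell to 3.80, 4.34 and 3.78 CPM in mutants, against 586, 692 and 707 CPM in WT (log2 -7.36 ± 0.25). Also lower were Ebf1, a B cell transcription factor (log2 -6.59 ± 0.25), and Cd79b, a signalling chain of the B cell receptor (log2 -5.10 ± 0.71). With WT 1, 2 or 3 left out in turn 11 of the 14 still fell, in fits that 0.665%, 0.601% and 0.667% of all tested genes passed. Counts of Bcl11a per count of these 14 genes were 0.730, 0.213 and 1.47 in mutants, against 0.0162, 0.0171 and 0.0176 in WT, a log2 difference of 5.17 (exact permutation p = 0.1, the smallest possible). The 14 genes fell far more (median log2 -6.86) than Bcl11a (log2 -0.90). The separation of the groups in this ratio, and its p, follow from that fall and are no separate result. Bcl11a averaged 79.6 ± 38.4 CPM in mutants and 147.3 ± 15.1 CPM in WT (SD, n = 3 each). Of 10 genes of plasmacytoid dendritic cells 3 fell and 0 rose, against 6.90% and 5.08% of all tested genes. Among those that fell were Ccr9, a chemokine receptor (log2 -3.08 ± 0.39, edgeR adjusted p = 0.0109), and Pacsin1, an endocytic adaptor (log2 -4.02 ± 0.73, edgeR adjusted p = 0.0246). Bst2 leaned higher (log2 0.53, edgeR adjusted p = 0.394). In mutants 1, 2 and 3, 0, 3 and 1 of the 10 stood above the WT mean on the log2 scale. The summed CPM of 5 markers of these cells was 8.23, 35.3 and 8.34 in mutants, against 50.6, 38.2 and 45.0 in WT. Irf8, a regulator of these cells, was at 17.0, 217 and 52.4 CPM in mutants, against 406, 419 and 439 CPM in WT (edgeR adjusted p = 0.178), and Tcf4, another, was at 85.4, 81.4 and 62.3 CPM in mutants, against 109, 107 and 115 CPM in WT (edgeR adjusted p = 0.127). Without mutant 2, 7 of the 10 were lower, in a fit that 29.0% of all tested genes passed. None of the 10 passed when any one WT library was left out. What these cell types contribute to the level of Bcl11a was not tested.

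Of 34 known regulators of globin genes 32 were tested, and 6 rose and 0 fell, against 5.08% and 6.90% of all tested genes, with a median log2 fold change of 0.66. Tal1, which joins Gata1 on globin enhancers, was at 220, 251 and 403 CPM in mutants, against 40.2, 41.7 and 19.9 CPM in WT (log2 3.09 ± 0.40, edgeR adjusted p = 0.0117). Zfpm1, the cofactor FOG1 of Gata1, was at 640, 407 and 1097 CPM in mutants, against 132, 131 and 102 CPM in WT (log2 2.54 ± 0.38, edgeR adjusted p = 0.0157). Chd4, the remodeller of the NuRD complex that works with Bcl11a, was at 913, 359 and 605 CPM in mutants, against 449, 466 and 489 CPM in WT (edgeR adjusted p = 0.435). The 3 mutants lay on both sides of WT for Chd4. For Tal1 and Zfpm1 they all stood above all WT libraries, as 18.0% of all tested genes did. The others that rose were Nfe2, which binds the beta-globin control region, Nfix, Dnmt1, the maintenance DNA methyltransferase, and Lin28a. Klf1, the activator of adult beta globin named above, was at 48.6, 249 and 266 CPM in mutants, against 52.4, 56.2 and 23.3 CPM in WT, and did not pass (edgeR adjusted p = 0.104). Lin28b, a fetal RNA-binding protein gene that was too low to be tested, had 137 counts in mutant 1, 0 in mutants 2 and 3, and 0, 2 and 0 in WT. The genes after Chd4 in this account were named after their values were seen. None of the 32 passed when any one WT library was left out, where 0.601% to 0.667% of all tested genes did. Without mutant 2, 11 of the 32 were higher and 0 lower, in a fit that 29.0% of all tested genes passed, and by DESeq2 13 were higher and 1 lower, where 28.9% of all tested genes passed.

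In a list of 22 early erythroid genes 4 rose and 0 fell, against 5.08% and 6.90% of all tested genes, and the median on the log2 scale was 1.85, against 0.10 over all tested genes. Mfsd2b, a lipid exporter of red cells and platelets, was at 506, 200 and 582 CPM in mutants, against 72.2, 74.3 and 40.6 CPM in WT (log2 2.76 ± 0.46, edgeR adjusted p = 0.0206). Alad, an early enzyme of haem synthesis, was at 635, 1151 and 521 CPM in mutants, against 219, 221 and 135 CPM in WT (log2 2.03 ± 0.43, edgeR adjusted p = 0.0339). Itga2b, an integrin gene of megakaryocytes and progenitors, was at 1920, 197 and 2944 CPM in mutants, against 128, 136 and 77.0 CPM in WT (edgeR adjusted p = 0.0498). Car1, a carbonic anhydrase of early red cells, was at 230, 688 and 1677 CPM in mutants, against 137, 164 and 82.3 CPM in WT (edgeR adjusted p = 0.0626). In each of these genes all mutants stood above all WT libraries, as 18.0% of all tested genes did. They were named for small p or high CPM. In mutants 1, 2 and 3, 15, 20 and 19 of the 22 stood above the WT mean on the log2 scale, and Cnrip1 was below it in each mutant. None of the 22 passed when any one WT library was left out, where 0.601% to 0.667% of all tested genes did. Without mutant 3 (10.4% of all tested genes passed) or with upper-quartile factors (2216 of 19573 tested genes passed), 2 passed. When mutant 2 was left out, 5 of the 22 were higher and 0 lower (29.0% of all tested genes passed). Without mutant 1, 11 of the 22 were higher and 0 lower (18.2% of all tested genes passed), and by DESeq2 14 were higher and 1 lower (28.9% passed).

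Per mutant, the median log2 difference from the WT mean was -3.83, -0.63 and -5.62 for the 4 adult globins, -1.07, 1.89 and -0.61 for the 28 late red cell genes, and 0.70, 1.84 and 1.78 for the 22 early erythroid genes in mutants 1, 2 and 3. Over all tested genes it was -0.03, -0.10 and 0.01. In each mutant the adult globins had the lowest of these 3 medians, and in mutants 1 and 3 the early genes had the highest. The medians of the 3 mutants lay farthest apart for the globins. How these lists relate to the globin values was not tested.

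**Figure D5:**
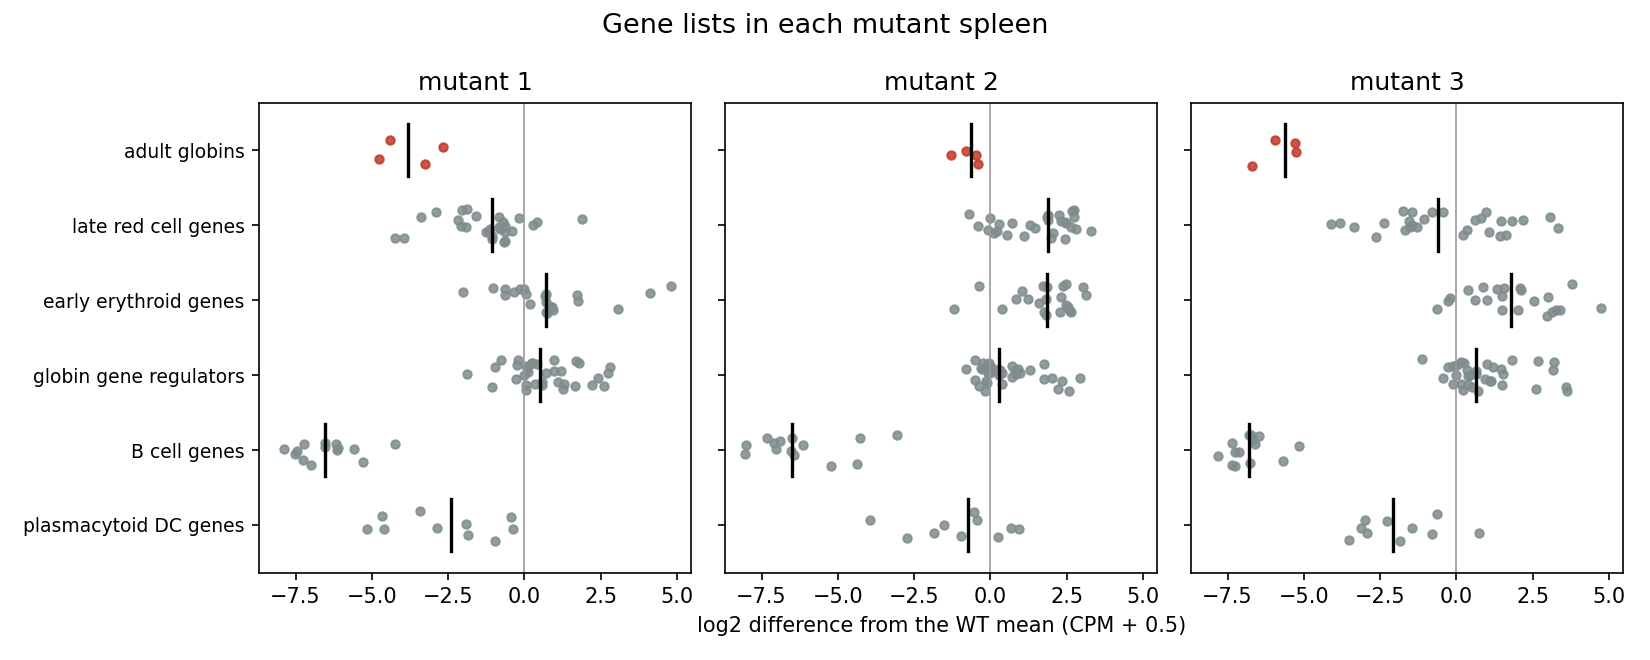
Log2 difference of each gene from the WT mean, on CPM with 0.5 added, in each mutant, with a black bar at the median of each list and the adult globins in red. Adult globins have medians of -3.83, -0.63 and -5.62 in mutants 1, 2 and 3, below those of the late red cell and early erythroid genes.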

How the data were processed

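Unnormalized counts, whole numbers for each Ensembl gene in 6 libraries, were deposited by the authors. The submitters' processing notes name STAR 2.5.3a, limma and the builds mm10 and GRCm38, without saying what each did. The kit was stranded and selected poly-A RNA, per the labels' protocols. How reads were assigned to genes, on which strand, and what became of reads shared between copies is not given in the sources used here. Symbols were matched for 31669 identifiers and not for 102, and 0 columns lacked a sample. Coordinates and exon lengths are from GENCODE M21 (GRCm38). Animals were numbered in accession order, which pairs none of them. The labels do not say whether animals shared a litter, so p-values measure the spread between these libraries.

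Fold changes come from edgeR 4.0.16 under R 4.3.3 with TMM factors, its expression filter and a robust quasi-likelihood fit on all genes, with Benjamini-Hochberg adjustment at 0.05. The SE is the absolute log2 fold change over the root of F. DESeq2 1.42.0 and limma-voom 3.58.1 were alternatives. The procedures were also run on simulated data with a smaller dispersion than was estimated here. That run does not show how they behave at the spread of these libraries. CPM use library totals without factors. Ratios are of counts, with 0.5 added to both sums before the log. Genes, lists and tests were chosen with earlier results of these data known. From each list the text names the 2 genes with the smallest p and the 2 with the highest mean CPM, apart from an item that is not reported here. Identities are of open reading frames in GENCODE transcripts after global alignment.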

Additional observations from a re-analysis of the deposited data

How the results depend on the processing

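Over all genes 2346 passed by edgeR, against 5650 by DESeq2, 3651 by limma-voom with sample weights and 11466 with mutant 3 alone against WT, and 123 to 5931 with any single library left out. Of the globin set 0 passed, against 1, 5 and 7 under those 3 alternatives and 0 to 7 with a library left out. Of the pathway lists 32 genes passed, against 57 by DESeq2, 78 with mutant 3 alone and 11 to 56 with a library left out. Without mutant 1, 3710 genes, 1 of the globin set and 48 list genes passed, and without mutant 2, 5931, 7 and 56. Without a WT library, 123 to 136 genes, 0 of the globin set and 11 list genes, all of them B cell genes, passed, and the cause was not tested. The log2 difference of alpha to beta was 0.04, and with a library left out it lay between -0.046 (without mutant 1) and 0.102. Hba-x was at -0.61 (edgeR adjusted p = 0.749) with mutant 3 alone. The other ratios and the share of adult globin kept their direction under the alternatives run, and the other 7 genes kept theirs. Upper-quartile factors moved the median log2 fold change of all genes to 0.00, against 0.10 with TMM factors. The ratio of Ahsp to alpha globin was not run. No paired analysis was possible because replicate numbers follow accession order. Depth limits Hba-x, Hbb-bh1 and Hbb-y in WT, which had at most 15, 8 and 6 counts.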

Other observations

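The genes whose profile over the 6 libraries lay nearest to the adult globin sum, among 12069 candidates, are given here. By root mean square difference of centred log2 CPM they were A430093F15Rik (0.46), Sh2d1a (0.47), Slc15a2 (0.48), Il2rb (0.48) and Mcoln2 (0.49). Il2rb, a receptor chain of interleukin 2 and 15 on lymphocytes, was at 3.06, 38.9 and 1.89 CPM in mutants 1, 2 and 3, against 59.3, 55.5 and 72.7 CPM in WT. Sh2d1a, an adaptor of T and natural killer cells, was at 0.233, 2.69 and 0.104 CPM in mutants, against 8.32, 6.27 and 8.19 CPM in WT. For both, mutant 2 lay nearest to WT and mutants 1 and 3 well below. Both genes were picked for nearness to the adult globin profile in these libraries, so sharing its order is no separate result.

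Nearest to Bcl11a were Strbp, at a distance of 0.05, Tspyl3 (0.10), Pafah1b3 (0.11), Hdac7 (0.13) and Ddb2 (0.14). Strbp, an RNA-binding protein gene, was at 58.2, 20.6 and 65.3 CPM in mutants, against 83.1, 95.2 and 94.5 CPM in WT. Nearest to Hbb-y, a search added after its values were seen, were Kif26b (0.50), Fap (1.33), Clstn3 (1.59), Nrap (1.601) and Gm26902 (1.63). Kif26b, a kinesin-family gene, was at 591, 0.807 and 3.53 CPM in mutants, against 0.203, 0.321 and 0.202 CPM in WT. Fap, a protease of activated fibroblasts, was at 387, 4.81 and 1.38 CPM in mutants, against 0.866, 0.757 and 0.492 CPM in WT.

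Of 9 genes that clear haem and haemoglobin 1 rose and 0 fell, against 5.08% and 6.90% of all tested genes. It was Hp, haptoglobin, which binds free haemoglobin, at 34.8, 56.7 and 97.1 CPM in mutants, against 10.2, 9.57 and 10.8 CPM in WT (log2 2.63 ± 0.39, edgeR adjusted p = 0.0152). Cd163, the macrophage receptor of that complex, was at 22.8, 206 and 51.7 CPM in mutants, against 22.5, 33.4 and 22.7 CPM in WT (edgeR adjusted p = 0.180). Hmox1, which degrades haem, was at 28.6, 845 and 102 CPM in mutants, against 315, 492 and 500.4 CPM in WT, and Fth1, the heavy chain of ferritin, was at 1015, 3888 and 1334 CPM in mutants, against 1628, 1744 and 1785 CPM in WT (edgeR adjusted p = 0.864 and 0.730). Hp no longer passed when any one WT library was left out, and without mutant 2 the list had 1 member higher and 3 lower, in a fit that 29.0% of all tested genes passed.

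Of 12 stem and progenitor genes 2 rose, Gfi1b and Runx1, and 1 fell, against 5.08% higher and 6.90% lower among all tested genes. Runx1, a factor of definitive blood stem cells, was at 137, 87.1 and 123 CPM in mutants, against 61.7, 64.5 and 68.3 CPM in WT (log2 0.84 ± 0.18, edgeR adjusted p = 0.0375), and Mecom, a stem cell factor, was at 0.741, 0.847 and 1.33 CPM in mutants, against 2.96, 3.17 and 3.68 CPM in WT (log2 -1.74 ± 0.38, edgeR adjusted p = 0.0378). Lyl1, another stem cell factor, was at 329, 198 and 210 CPM in mutants, against 178, 187 and 187 CPM in WT, and Cbfa2t3, a corepressor, was at 305, 59.0 and 495 CPM in mutants, against 98.2, 113 and 124 CPM in WT (edgeR adjusted p = 0.265 and 0.227). None of the 12 passed when any one WT library was left out, where 0.601% to 0.667% of all tested genes did. By DESeq2 3 were higher and 3 lower (28.9% of all tested genes passed). Among neighbours of the alpha cluster, Nprl3, whose introns hold its enhancers, was at 56.6, 57.8 and 36.0 CPM in mutants, against 46.1, 41.3 and 42.3 CPM in WT. Il9r, the interleukin 9 receptor gene, was at 1.65, 4.01 and 1.71 CPM in mutants, against 48.5, 29.5 and 34.0 CPM in WT. Sh3pxd2b, an adaptor gene of podosomes, was at 88.1, 79.3 and 7.46 CPM in mutants, against 8.86, 7.99 and 9.70 CPM in WT, so that mutants 1 and 2 stood above WT and mutant 3 below it. These 3 of the 7 neighbours with a row within 100 kb were named after their values were seen.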
